A study of Arabidopsis thaliana with 12 samples.

Results

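A set of 10 genes of the leaf cuticle were followed across 4 genotypes of Arabidopsis thaliana, out of the 28775 genes in the deposited count table. They were picked by gene identifier, with earlier results of these same libraries known, as makers of cuticular wax and cutin: KCS1 (AT1G01120), KCS6 (AT1G68530, also called CER6), CER1 (AT1G02205), CER3 (AT5G57800), MAH1 (AT1G57750), CER4 (AT4G33790), WSD1 (AT5G37300), GPAT6 (AT2G38110), CYP77A6 (AT3G10570) and CUS2 (AT5G33370). Because the choice rested on these libraries, the values of the 10 genes are given as a description. Calls past the threshold are named for them, but no p is given and nothing is read from how many passed. The study measured polyadenylated RNA by stranded sequencing in mature leaves of plants grown for 21 days on soil in long days, without any treatment. Wild-type Col-0 plants (WT), plants carrying mutations in both TRB4 and TRB5 (trb45, line trb45-1), plants carrying the clf29 allele of CURLY LEAF (clf29), and plants carrying all of these mutations (trb45 clf29) gave 3 libraries each. TRB4 and TRB5 are telomere repeat binding proteins, which also bind short telomere-like motifs in promoters, and CURLY LEAF is a catalytic subunit of Polycomb repressive complex 2, which places a repressive histone H3 mark. Every mutant genotype was represented by a single line, and how many plants went into a library was not given in the sources used here, so the spread between libraries may be partly technical.

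The cuticle is a lipid layer that epidermal cells build on the outside of leaves, stems and flowers, and it limits water loss. Its waxes start from fatty acids that the KCS condensing enzymes lengthen; CER1 and CER3 turn the long chains into alkanes, MAH1 oxidises alkanes in stems, CER4 makes primary alcohols, and WSD1 joins alcohols to fatty acids as wax esters. Cutin, the polyester frame in which the waxes sit, is assembled from oxidised fatty acids joined to glycerol; GPAT6 and CYP77A6 make its building blocks, which are abundant in floral cutin, and CUS2 belongs to the family of enzymes that link them.

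Sequences just before the gene start were read for all 10 genes, as 300 bases of the TAIR10.1 genome, because TRB proteins bind telomere-like motifs and epidermal factors bind L1 boxes. Both strands were searched for 6 motifs, and the promoters below are those that held the telobox or the L1 box. Each is written in the gene's own direction, and capitals mark the motifs found. WSD1 held the telobox AAACCCTA on its own strand, from position -29 to -22 relative to its start (chr5:14767126-14767425, plus strand).
WSD1: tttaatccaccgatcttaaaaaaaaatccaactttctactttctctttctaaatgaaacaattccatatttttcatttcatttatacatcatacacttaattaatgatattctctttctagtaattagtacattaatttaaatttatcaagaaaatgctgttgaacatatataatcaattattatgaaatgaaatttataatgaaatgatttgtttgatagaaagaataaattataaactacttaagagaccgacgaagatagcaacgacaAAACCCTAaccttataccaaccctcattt
MAH1 held the same telobox on the opposite strand, from position -282 to -275 (chr1:21385710-21386009, minus strand).
MAH1: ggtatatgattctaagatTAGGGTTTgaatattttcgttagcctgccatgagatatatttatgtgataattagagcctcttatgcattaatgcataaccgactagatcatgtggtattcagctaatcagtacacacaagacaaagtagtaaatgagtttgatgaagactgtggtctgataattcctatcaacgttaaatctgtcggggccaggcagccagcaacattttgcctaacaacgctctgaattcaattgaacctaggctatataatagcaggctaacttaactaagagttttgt
CUS2 held the L1 box form TAAATGTA on the opposite strand, from position -74 to -67 (chr5:12604833-12605132, minus strand).
CUS2: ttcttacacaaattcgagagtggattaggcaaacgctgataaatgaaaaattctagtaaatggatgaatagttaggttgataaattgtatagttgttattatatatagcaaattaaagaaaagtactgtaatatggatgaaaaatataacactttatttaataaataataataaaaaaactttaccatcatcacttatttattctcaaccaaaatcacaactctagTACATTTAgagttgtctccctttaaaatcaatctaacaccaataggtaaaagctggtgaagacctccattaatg
GPAT6 held that L1 box form, the GCC box GCCGCC and the GA repeat GAGAGA, all on the opposite strand (chr2:15955753-15956052, minus strand).
GPAT6: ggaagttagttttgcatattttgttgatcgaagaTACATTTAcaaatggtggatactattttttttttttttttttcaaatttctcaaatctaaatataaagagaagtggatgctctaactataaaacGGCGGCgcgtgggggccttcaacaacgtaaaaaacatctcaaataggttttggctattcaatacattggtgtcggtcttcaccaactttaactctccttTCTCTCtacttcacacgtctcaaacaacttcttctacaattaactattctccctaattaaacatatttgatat
The telobox lay in 2 of the 10 promoters and in 5.27% of 28008 promoters of the same length, and it contains the shorter form AACCCTA, found in the same 2 members and in 7.69% of all promoters. The L1 box form TAAATGTA lay in 2 members and 3.66% of all promoters, and its other form TAAATGCA in none of the members and 1.89% of all promoters. The GA repeat lay in CER3 and GPAT6 and in 23.6% of all promoters, and the GCC box in GPAT6 and in 2.30% of all promoters. KCS1, KCS6, CER1, CER4 and CYP77A6 held none of the 6 motifs in this window. These matches are letters in a window, and no binding was measured here.

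The libraries held 45519206 to 54215882 counted reads. CLF was at 10.9 to 15.1 CPM (read counts scaled to library size) in the 6 libraries with an intact CLF and at 0 to 0.209 CPM in the 6 libraries labelled clf29 or trb45 clf29. TRB4 was at 1.24 to 3.05 CPM and TRB5 at 1.12 to 4.34 CPM in the 6 libraries labelled trb45 or trb45 clf29, against 3.92 to 6.20 and 15.6 to 19.6 CPM in the others, so transcripts of both genes remained detectable. Mesophyll markers summed to between 66371 and 87202 CPM, with all 5 detected in every group. Markers of floral organs summed to 104 to 119 CPM in clf29 and 93.0 to 99.2 CPM in trb45 clf29, against 1.09 to 1.82 CPM in WT and trb45. These sums were mostly SEP3 and AG: 5 of the 7 markers, SEP1, SEP2, SEP3, AP1 and AP3, fell past the threshold from clf29 to trb45 clf29, and AG rose. Markers of anthers summed to 14.0 to 30.1 CPM in clf29, against 2.77 to 6.14 CPM in the other 3 groups. In bulk leaf RNA, fewer cells of a type and less RNA per cell cannot be told apart.

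The condensing enzymes that lengthen fatty acids were abundant and varied little between libraries of a genotype. KCS6, the main condensing enzyme for leaf and stem wax (chromosome 1, 25712414 to 25715024), was at 145, 164 and 158 CPM in WT, at 210, 222 and 205 CPM in trb45, at 212, 199 and 199 CPM in clf29, and at 296, 321 and 303 CPM in trb45 clf29. Every mutant library was above every WT library, the combined mutant was the highest, and trb45 and clf29 overlapped. KCS6 was higher than WT by 0.45 ± 0.06 (log2 fold change ± SE, as in all such values that follow) in trb45, by 0.38 ± 0.06 in clf29 and by 0.97 ± 0.06 in trb45 clf29.

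KCS1, which also elongates wax precursors (chromosome 1, 57164 to 59215), was at 93.2, 99.0 and 93.9 CPM in WT, at 94.6, 91.7 and 91.5 CPM in trb45, at 149, 134 and 146 CPM in clf29, and at 147, 161 and 147 CPM in trb45 clf29. The 4 genotypes fell into a lower pair, WT and trb45, and a higher pair, clf29 and trb45 clf29, with no overlap between the pairs. KCS1 was higher in clf29 than in WT by 0.58 ± 0.06, and the trb45 mutations moved it by -0.04 ± 0.06 in the WT background and by 0.09 ± 0.06 in the clf29 background. By group mean, KCS1 and KCS6 were the members highest in trb45 clf29, although for KCS1 its libraries overlapped with those of clf29.

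**Figure D1:**
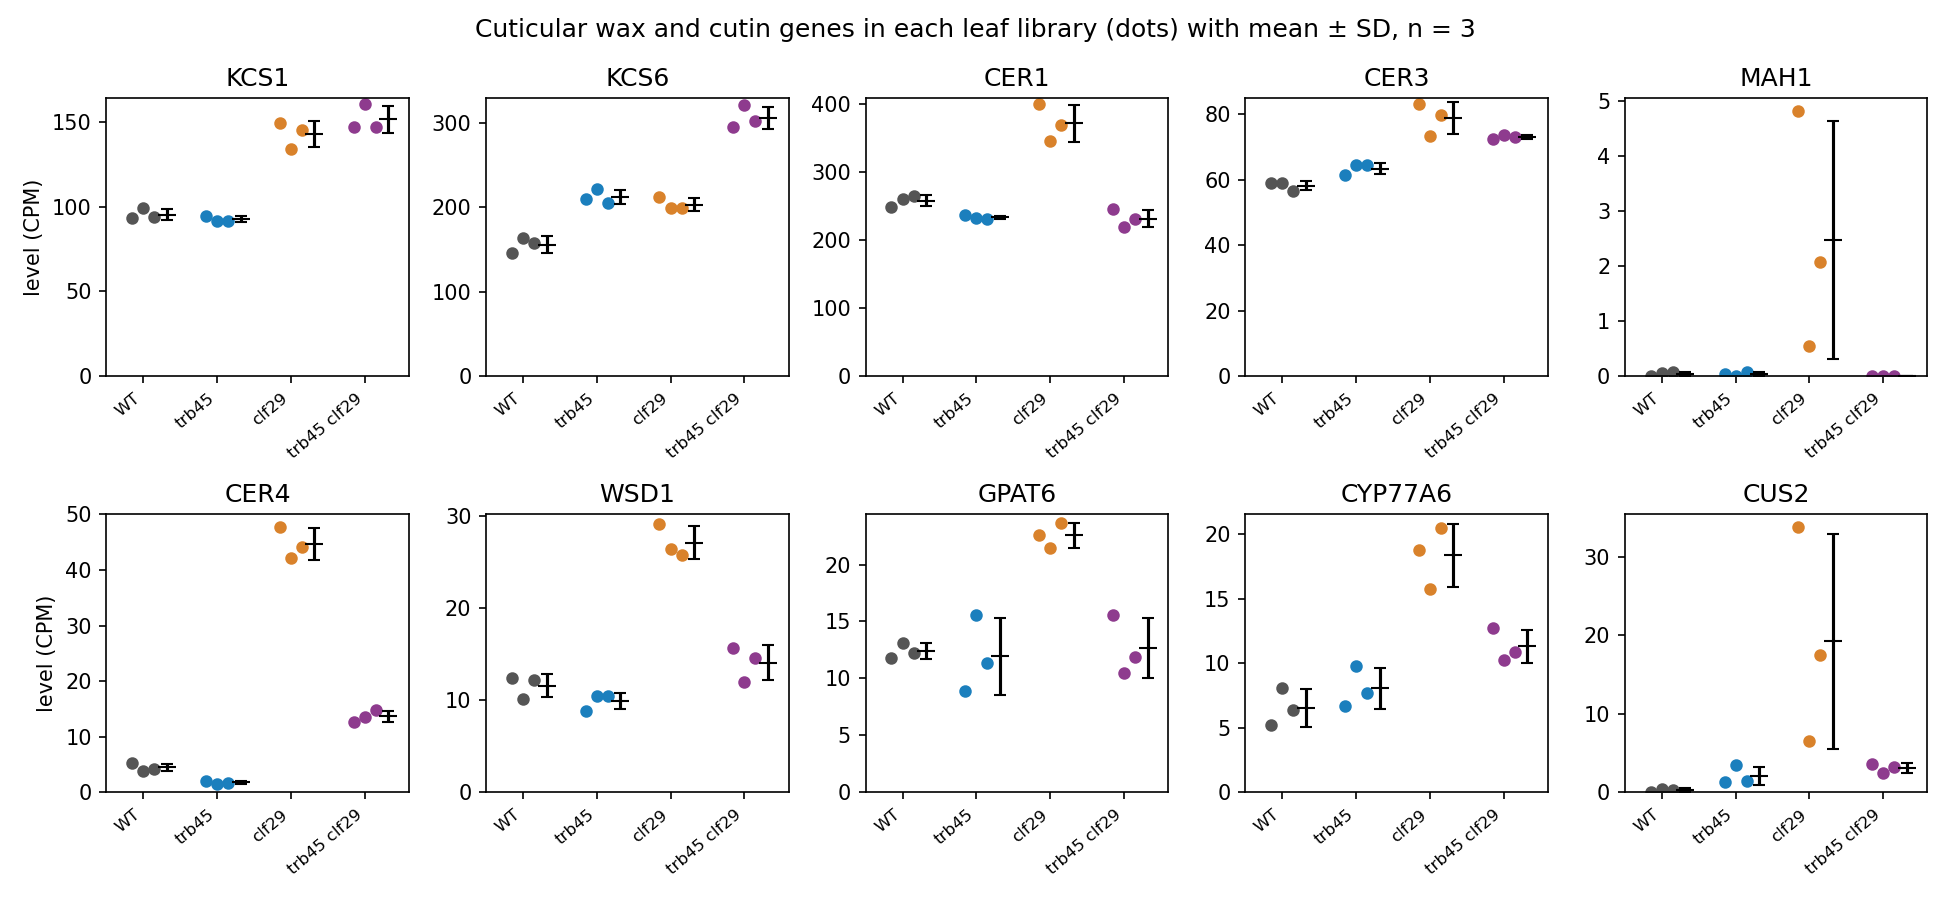
CPM (vertical axes, linear and starting at 0, each panel with its own range) of the 10 cuticle genes in the 3 libraries of each of the 4 genotypes (dots), with the mean ± SD beside them. CER1, CER4, WSD1, GPAT6, CYP77A6, CUS2 and MAH1 stand highest in clf29, while KCS6 stands highest in trb45 clf29.

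The alkane-forming genes did not move alike. CER1 fell past the threshold from clf29 to the combined mutant, which neither condensing enzyme did. CER3 passed the threshold in the same comparisons as KCS1, each time upward. CER1, the alkane-forming enzyme (chromosome 1, 418416 to 422579), was at 248, 261 and 265 CPM in WT, at 236, 232 and 231 CPM in trb45, at 400, 346 and 369 CPM in clf29, and at 245, 219 and 231 CPM in trb45 clf29. The clf29 libraries stood above all 9 others, and the combined mutant lay at the level of trb45. CER1 was 0.53 ± 0.06 higher in clf29 than in WT and 0.68 ± 0.06 lower in trb45 clf29 than in clf29 on the log2 scale.

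CER3, the partner of CER1 (chromosome 5, 23420184 to 23424117), was at 58.9, 58.9 and 56.6 CPM in WT, at 61.4, 64.4 and 64.4 CPM in trb45, at 83.1, 73.5 and 79.8 CPM in clf29, and at 72.3, 73.5 and 73.0 CPM in trb45 clf29. The libraries of all 3 mutants lay above those of WT, and clf29 and trb45 clf29 met at their edges. The difference of trb45 from WT, at 0.12 on the log2 scale, did not pass the threshold. The difference of CER3 between trb45 clf29 and clf29 was -0.11 ± 0.06, against the -0.68 of CER1.

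MAH1, the mid-chain alkane hydroxylase (chromosome 1, 21383812 to 21385709), was barely detected outside clf29. It had 0, 3 and 4 reads in WT, 2, 0 and 4 reads in trb45, 257, 28 and 109 reads in clf29, and 0, 0 and 0 reads in trb45 clf29. The clf29 libraries differed widely among themselves, at 4.82, 0.54 and 2.07 CPM, yet all stood above the other 9. With 0 reads in each trb45 clf29 library and a detection floor of 3 reads per library, MAH1 was at least 42.1-fold lower there than in clf29; the bound became 22.2-fold without clf29 replicate 1. The clf29 excess over WT was 5.81 ± 0.88, and became 4.89 without clf29 replicate 1 and 5.22 without WT replicate 1.

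By group mean, the genes of alcohols and esters showed the same order of genotypes as each other: trb45, WT, trb45 clf29, clf29. GPAT6, a cutin gene, had this order as well. CER4, the fatty acid reductase that makes primary alcohols (chromosome 4, 16204096 to 16207956), was at 5.24, 3.91 and 4.28 CPM in WT, at 2.09, 1.59 and 1.69 CPM in trb45, at 47.7, 42.1 and 44.1 CPM in clf29, and at 12.7, 13.5 and 14.7 CPM in trb45 clf29. None of the 4 genotypes overlapped. CER4 was higher in clf29 than in WT by 3.32 ± 0.11, and it was moved by the trb45 mutations by -1.31 ± 0.13 in the WT background and by -1.71 ± 0.10 in the clf29 background.

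WSD1, the wax ester synthase (chromosome 5, 14767426 to 14770396), whose promoter is printed above with its telobox, was at 12.5, 10.1 and 12.2 CPM in WT, at 8.88, 10.5 and 10.5 CPM in trb45, at 29.2, 26.4 and 25.8 CPM in clf29, and at 15.7, 12 and 14.6 CPM in trb45 clf29. The clf29 libraries stood above all others, while the remaining genotypes lay close together and WT overlapped with both of the others. WSD1 was higher in clf29 than in WT by 1.23 ± 0.11 and changed by -0.95 ± 0.11 from clf29 to trb45 clf29.

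The cutin genes also stood highest in clf29. GPAT6, an acyltransferase that makes cutin monomers (chromosome 2, 15952496 to 15955752), was at 11.8, 13.1 and 12.2 CPM in WT, at 8.93, 15.6 and 11.4 CPM in trb45, at 22.6, 21.5 and 23.7 CPM in clf29, and at 15.6, 10.5 and 11.9 CPM in trb45 clf29. Apart from clf29 the genotypes overlapped, and trb45 and trb45 clf29 were the most scattered. GPAT6 was 0.86 ± 0.16 higher in clf29 than in WT, and the trb45 mutations moved it by -0.06 ± 0.16 in the WT background and by -0.83 ± 0.16 in the clf29 background.

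CYP77A6, the cytochrome P450 that hydroxylates cutin monomers within the chain (chromosome 3, 3301887 to 3303982), was at 5.19, 8.06 and 6.36 CPM in WT, at 6.73, 9.83 and 7.66 CPM in trb45, at 18.8, 15.8 and 20.5 CPM in clf29, and at 12.7, 10.3 and 10.9 CPM in trb45 clf29. The clf29 libraries were again above all others, with trb45 clf29 next and WT and trb45 overlapping. CYP77A6 was 1.49 ± 0.16 higher in clf29 than in WT, and -0.70 ± 0.15 separated trb45 clf29 from clf29.

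CUS2, a cutin synthase of the GDSL lipase family (chromosome 5, 12602468 to 12604832), whose promoter is printed above with its L1 box, showed the widest differences among the members detected in every genotype. It had 0, 26 and 16 reads in WT, 76, 159 and 84 reads in trb45, 1799, 340 and 917 reads in clf29, and 183, 128 and 167 reads in trb45 clf29. In CPM this was 0 to 0.48 in WT, 1.32 to 3.47 in trb45, 6.57 to 33.7 in clf29 and 2.47 to 3.65 in trb45 clf29, so clf29 stood above all others and trb45 overlapped with trb45 clf29. CUS2 was higher than WT by 3.01 ± 0.78 in trb45, by 6.24 ± 0.68 in clf29 and by 3.62 ± 0.74 in trb45 clf29, and it changed by -2.62 ± 0.49 from clf29 to trb45 clf29. These sizes rest on single libraries: the value in trb45 became 2.39 without WT replicate 1 and 3.83 without WT replicate 2. The value in clf29 became 5.56 without clf29 replicate 1, 5.64 without WT replicate 1 and 7.07 without WT replicate 2. The value of trb45 clf29 against WT became 3.01 without WT replicate 1 and 4.45 without WT replicate 2, and that against clf29 became -1.94 without clf29 replicate 1. The annotated CUS2 also overlaps a pseudogene by 9 bases at its edge.

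Per kilobase of the longest transcript, the 10 genes spanned a wide range of levels in WT. CER1 led at 86.7 ± 2.9 CPM per kb (SD, n = 3), followed by KCS6 at 69.2 ± 4.3, KCS1 at 46.5 ± 1.6 and CER3 at 22.5 ± 0.51. The alcohol, ester and cutin genes formed a lower tier in WT, with WSD1 at 5.89 ± 0.64, GPAT6 at 5.60 ± 0.30, CYP77A6 at 3.12 ± 0.69 and CER4 at 2.29 ± 0.35 CPM per kb; WSD1 and GPAT6 did not differ beyond their spread, nor did CYP77A6 and CER4. In clf29, CER4 reached 22.8 ± 1.5 CPM per kb, below CER3 at 30.4 ± 1.9, and CUS2 stood at 12.3 ± 8.7. In trb45 clf29 KCS6 led at 136 ± 5.8 CPM per kb, above CER1 at 77.8 ± 4.4.

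Set against WT, clf29 leaves had more transcript of every member. All 10 members passed the threshold upward (edgeR adjusted p under 0.05 over 19138 genes tested), where 18.5% of all genes did, and in all 10 the 3 clf29 libraries lay above the 3 WT libraries, as for 26.5% of all genes; 34.7% of all genes passed and 50.8% did not overlap in either direction. The median log2 fold change of the members was 1.04, against 0.0039 for all genes tested. These libraries had served to choose the members, so nothing is read from the counts.

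In trb45 against WT the members did not move one way. KCS6 and CUS2 passed upward (14.5% of all genes did) and CER4 passed downward (11.2% of all genes did), and the other 7 did not pass; 25.7% of all genes passed in either direction. The libraries of trb45 and WT overlapped for 5 members, while 3 stood wholly above and 2 wholly below, against 20.4% and 17.3% of all genes, or 37.7% in either direction. The median of the members was -0.05, against 0.01 for all genes.

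In trb45 clf29 against clf29, 7 members were lower past the threshold, CER1, MAH1, CER4, WSD1, GPAT6, CYP77A6 and CUS2, where 14.2% of all genes were, and KCS6 was higher, as were 17.2% of all genes. The same 7 had all 3 trb45 clf29 libraries below all 3 clf29 libraries, as did 22.7% of all genes, and KCS6 had them above, as did 24.9%. In either direction 31.4% of all genes passed and 47.6% did not overlap. The median of the members was -0.77, against 0.02 for all genes. KCS1 and CER3, which did not pass, were at 0.09 ± 0.06 and -0.11 ± 0.06. This comparison shares its clf29 libraries with that of clf29 against WT.

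Against WT, the combined mutant kept 7 members higher past the threshold: KCS1, KCS6, CER3, CER4, WSD1, CYP77A6 and CUS2 (25.9% of all genes were higher and 48.5% passed in either direction). The libraries of trb45 clf29 lay wholly above those of WT for 6 members and wholly below for 1, against 30.1% and 26.9% of all genes, or 57.0% in all. The call of WSD1, at 0.28, was lost in 17 of 19 alternative fits, and leaving out any library but trb45 clf29 replicate 2 lost it, with values down to 0.19. CER1, at -0.16, was not called but was in 12 of the 19. Against trb45, 6 members were higher (15.8% of all genes were, and 30.5% passed in either direction): KCS1, KCS6, CER3, CER4, WSD1 and CYP77A6. The libraries of 6 members lay wholly above, as for 20.4% of all genes, where 39.3% did not overlap in either direction. The call of CER3, at 0.20, was lost without trb45 replicate 1 (0.18). That of CYP77A6, at 0.49, was lost without trb45 replicate 1 (0.37), trb45 replicate 3 (0.45), trb45 clf29 replicate 1 (0.40) or the unnumbered trb45 clf29 library (0.52). With scaling by library size alone, and with a replicate block, both calls were lost and 4 members were called; CER3 then had 0.069 and 0.20, and CYP77A6 0.36 and 0.54.

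**Figure D2:**
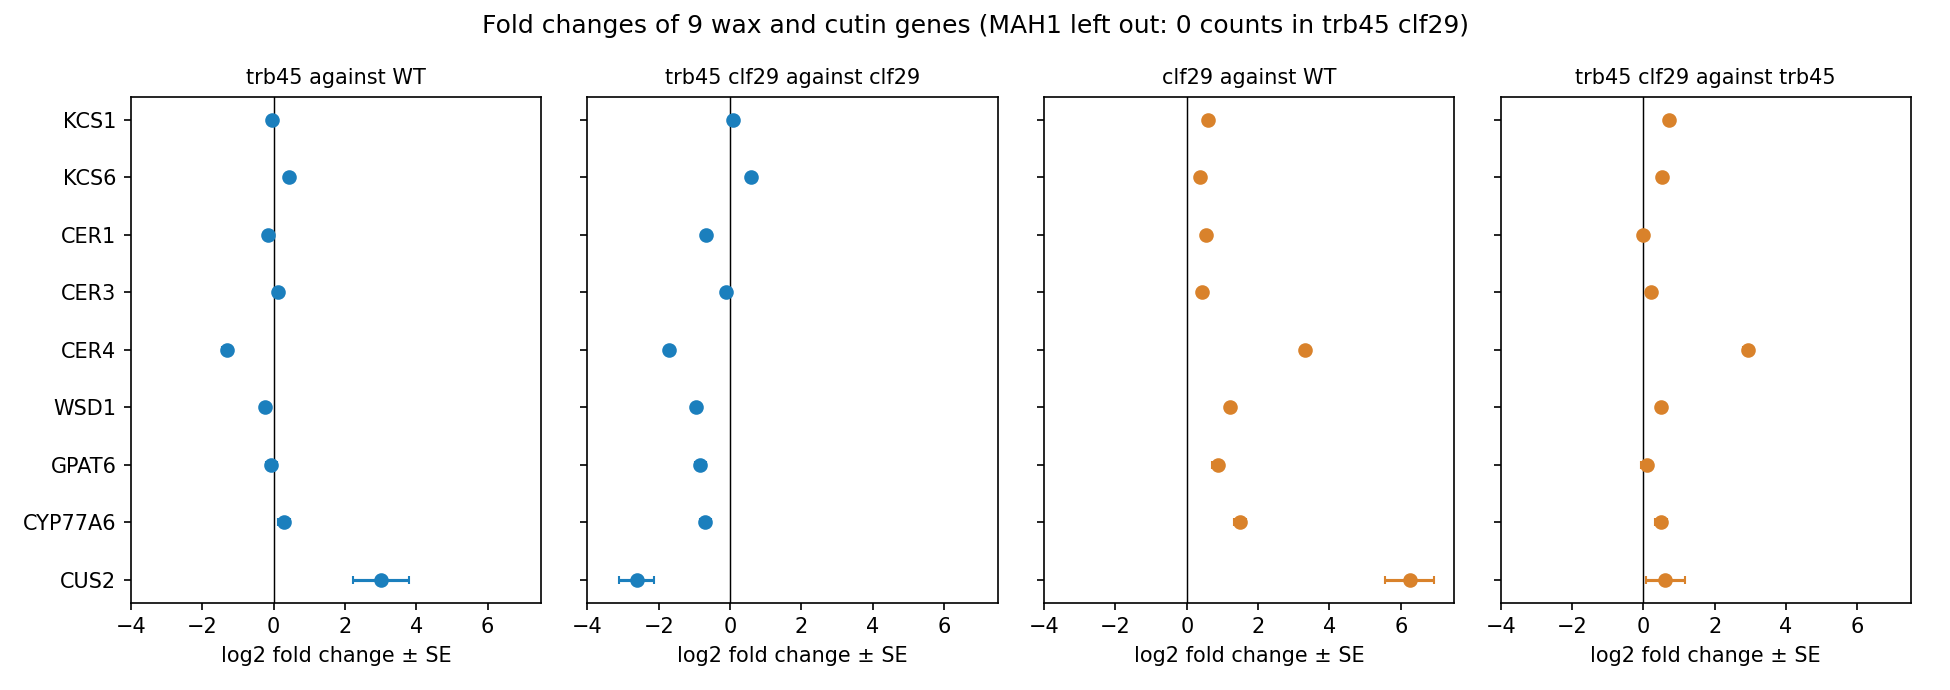
Log2 fold change (horizontal axes) of 9 cuticle genes in 4 comparisons between genotypes, 1 panel each, with bars of 1 SE; MAH1 is left out because it has no reads in trb45 clf29. All 9 points of clf29 against WT lie right of 0, while trb45 clf29 against clf29 runs from KCS6 at 0.59 down to CUS2 at -2.62.

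The effect of the trb45 mutations was then compared between the clf29 and the WT background, as the difference of those log2 fold changes. It was negative past the threshold for 4 members, where 3.31% of all genes were and 4.16% were positive, or 7.47% in all: CER1 at -0.54 ± 0.09, WSD1 at -0.72 ± 0.15, CYP77A6 at -1.0 ± 0.22 and CUS2 at -5.63 ± 0.90. For CUS2 the trb45 effect was 3.01 in the WT background and -2.62 in the clf29 background, so its direction differed. The CUS2 difference became -4.95 without clf29 replicate 1, -5.02 without WT replicate 1 and -6.45 without WT replicate 2. For CER4 the trb45 effect was of like size in both backgrounds, with a difference of -0.40 ± 0.17, and for KCS6 it was 0.14 ± 0.09; neither passed. GPAT6, at -0.77 ± 0.23, did not pass either, but it passed in 5 of the alternative fits. MAH1, for which no size is given because trb45 clf29 had no reads, did not pass and passed in 5 of 18 alternative fits. The median difference of the members was -0.63, against -0.01 for all genes. It uses the same clf29 libraries as clf29 against WT, where every member stood higher. Members were chosen with results of these libraries known, so nothing is read from the count or the median.

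**Figure D3:**
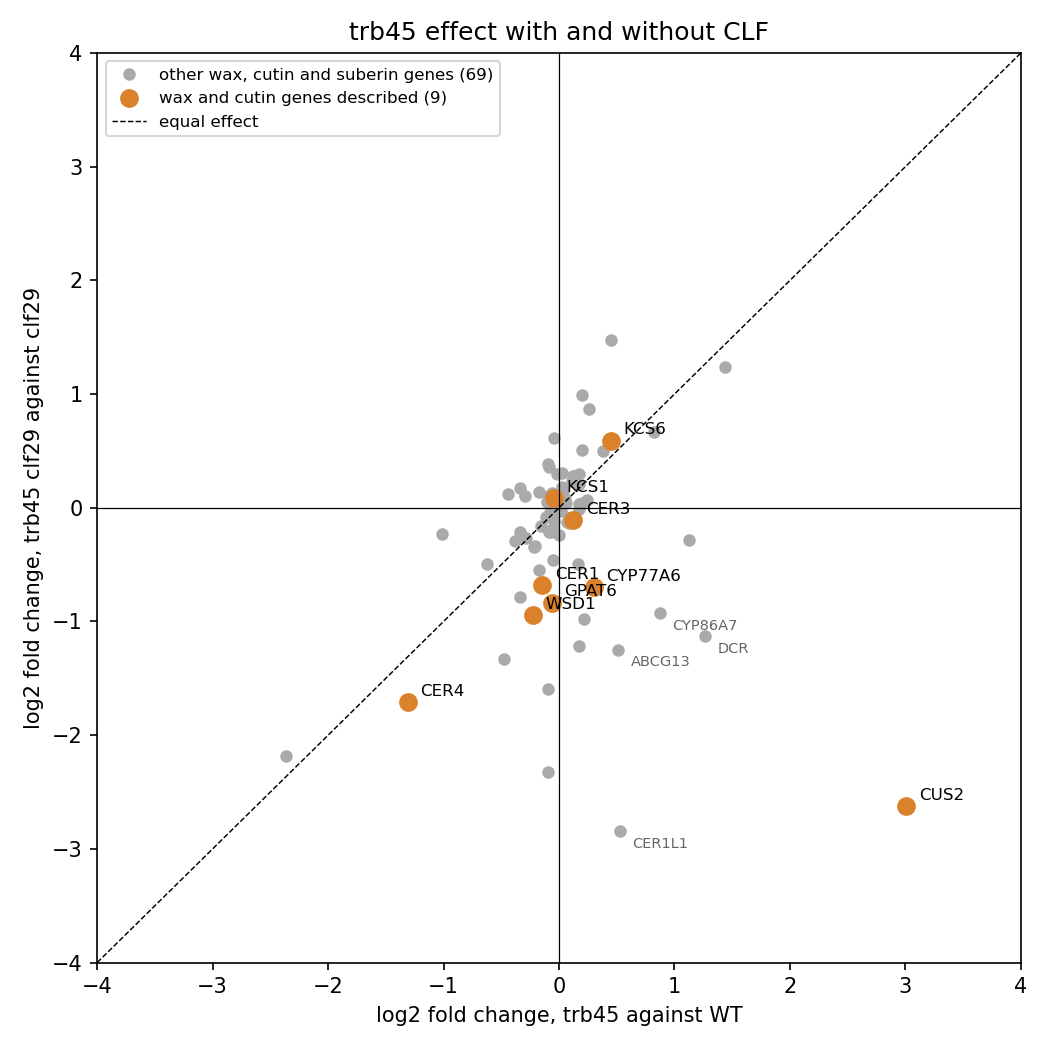
Log2 fold change of trb45 against WT (horizontal axis) and of trb45 clf29 against clf29 (vertical axis) for 9 cuticle genes (coloured, named) and 69 other pathway genes (grey); the dashed diagonal marks equal values. KCS6 lies above 0 on both axes at 0.45 and 0.59, CER4 below 0 on both at -1.31 and -1.71, and CUS2 at 3.01 and -2.62.

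Libraries of clf29 stood apart from each other in a few of these genes. CUS2 spanned 5.13-fold and MAH1 8.90-fold from the lowest to the highest clf29 library, in the order replicate 1, replicate 3, replicate 2 from high to low. The floral organ markers SEP2, AP1 and AP3 and the anther markers MS2 and A9 had the same order. So did 6 of the 10 members and 22 of 70 other cuticle pathway genes. Among the markers tested, it held for 5 of 7 of floral organs and 7 of 9 of anthers. SEP3 and AG, which made up most of the floral organ sum, did not follow it, nor did LAP6 and TKPR1. The share of all genes with this order was not computed. KCS1, CER1, CER3 and CER4, which had it, spanned only 1.11- to 1.16-fold. Apart from CUS2 and MAH1, no member spanned over 2-fold. In trb45 clf29, SEP3, AP3, PI and AG were higher than in WT past the threshold and SEP1, SEP2 and AP1 were not. MS2, DYT1, MS1, CYP703A2, ACOS5, A9 and AP1 were at 0 in all 3 trb45 clf29 libraries, as was MAH1. Of these, DYT1, MS1, CYP703A2 and ACOS5 were also at 0 in every WT library. MS1, CYP703A2 and ACOS5 were at 0 in every trb45 library too. The part of flower tissue or floral identity in the levels of CUS2 and MAH1 was not tested.

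**Figure D4:**
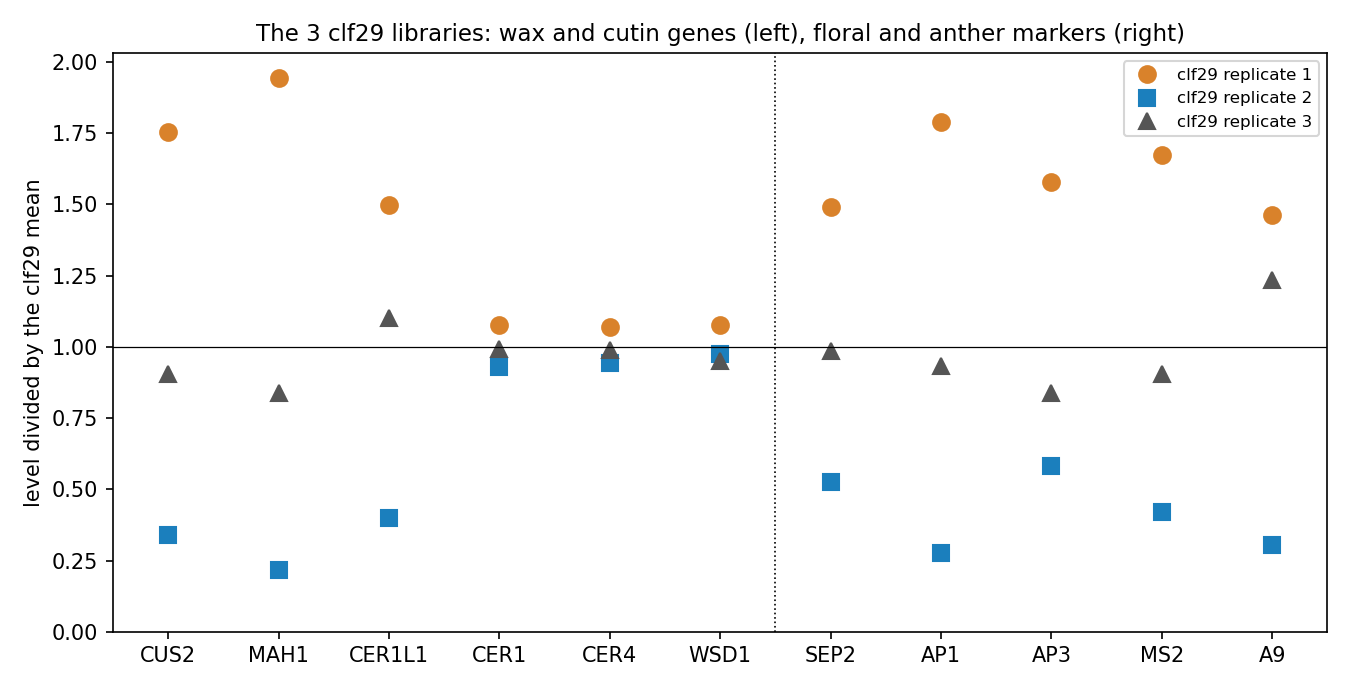
Level in each clf29 library divided by the clf29 mean of that gene (vertical axis, linear), for 5 members, CER1L1, 3 floral organ markers and 2 anther markers (horizontal axis); symbols are the 3 libraries. CUS2 and MAH1 fall from replicate 1 over replicate 3 to replicate 2, with CUS2 at 33.7, 17.4 and 6.57 CPM, as AP1, AP3, MS2 and A9 do. SEP3 and AG, which do not follow this order, are not drawn.

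The epidermis, the tissue that makes the cuticle, was represented by 5 markers, and their summed level was lower in clf29, at 274 to 278 CPM, than in WT, at 336 to 366 CPM. Of the 5, ATML1, PDF2, PDF1 and HDG2 were lower in clf29 past the threshold, by log2 fold changes of -0.42, -0.41, -0.67 and -0.41, while ANL2 was not. Guard cell markers summed to 109 to 114 CPM in clf29 and 121 to 132 CPM in WT, with 2 of 8, KAT1 and MYB60, lower past the threshold. Trichome markers went the other way, at 13.7 to 16.0 CPM in clf29 and 9.51 to 10.9 CPM in WT, with GL2 and GL3 higher past the threshold and TRY not. The higher level of the members in clf29 thus stood beside lower epidermis and guard cell sums and a higher trichome sum. In trb45, replicate 2 had the highest epidermis and guard cell sums, at 426 and 159 CPM. Its trichome and mesophyll sums were the highest too, at 14.0 and 79540 CPM. KCS6, WSD1, GPAT6, CYP77A6 and CUS2 were highest in that library, and CER4 and MAH1 lowest. Replicate 1 of trb45 clf29 likewise had the highest epidermis and guard cell sums of its group, at 354 and 144 CPM. Its trichome and mesophyll sums, at 17.9 and 87202 CPM, were also the highest. CER1, WSD1, GPAT6, CYP77A6 and CUS2 were highest there, and KCS6, CER3 and CER4 lowest. The part of any of these sums in the members' values was not tested.

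Beyond the members, 86 further genes of cuticle and suberin metabolism were listed and 70 had enough reads to be tested. In clf29 against WT 19 were higher and 11 lower, which is 42.9% of those tested against 34.7% of all genes. In trb45 clf29 against clf29 10 were higher and 17 lower, or 38.6% against 31.4%, and in trb45 against WT 5 were higher and 10 lower, or 21.4% against 25.7%. The difference between backgrounds passed for 10, with 4 positive and 6 negative, or 14.3% against 7.47%. These genes were also listed with earlier results of these data known, so nothing is read from the shares.

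Among 24 further elongation genes, 7 were higher and 3 lower in clf29. KCS2 rose from 4.39 ± 0.08 CPM in WT to 10.4 ± 2.3 CPM in clf29 (SD, n = 3; log2 fold change 1.25, edgeR adjusted p = 9.21e-05), and KCS8 rose from 25 ± 5.4 to 46.6 ± 2.9 CPM (0.90, edgeR adjusted p = 8.73e-04). KCS8 fell again in trb45 clf29 to 27.0 ± 4.8 CPM (-0.79, edgeR adjusted p = 0.00227), and KCS13 rose, from 5.46 ± 0.65 to 7.73 ± 0.80 CPM (0.50, edgeR adjusted p = 0.00304). In trb45 against WT, KCS12 fell by 0.38 on the log2 scale (edgeR adjusted p = 0.00312). KCS13 was 0.38 higher there (edgeR adjusted p = 0.0168), a call lost without WT replicate 1 (0.30), WT replicate 3 (0.34), trb45 replicate 1 (0.35) or trb45 replicate 3, where the value was unchanged at 0.38. KCS5, the closest relative of KCS6, was at 33.4 ± 3.4, 36.7 ± 7.4, 37.5 ± 1.3 and 45.6 ± 5.4 CPM in the order WT, trb45, clf29 and trb45 clf29. It was higher in trb45 clf29 than in WT (0.45, edgeR adjusted p = 0.00675), a call lost without WT replicate 1 (0.37), and passed in no other comparison.

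Among 8 further genes of wax modification, CER1L1, a relative of CER1 that lies 388 bases upstream of it, was at 0.35, 0.50, 3.95 and 0.55 CPM as the mean of WT, trb45, clf29 and trb45 clf29. It rose in clf29 (3.50 ± 0.43, edgeR adjusted p = 1.66e-05) and fell from clf29 to trb45 clf29 (-2.85 ± 0.41, edgeR adjusted p = 7.39e-05). Its clf29 libraries were at 5.92, 1.58 and 4.35 CPM, the order of CUS2 and MAH1, and reads shared between CER1L1 and CER1 would leave its level uncertain. WSD3, a relative of WSD1, fell in trb45 (16.6 ± 2.3 to 10.8 ± 0.22 CPM, -0.63, edgeR adjusted p = 4.51e-04). WSD7 fell in clf29 and was higher in trb45 clf29 than in clf29 (-0.98, edgeR adjusted p = 0.00352; 0.99, edgeR adjusted p = 0.00339). WSD2, chosen after its values were seen, had no reads outside clf29 and was at least 9.58-fold higher there than in WT. That bound became 7.19-fold without clf29 replicate 2.

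Among 14 further cutin genes, 4 rose and 2 fell in clf29. DCR, an acyltransferase needed for cutin, rose from 5.71 ± 3.1 to 30.2 ± 6.5 CPM (2.41, edgeR adjusted p = 1.31e-04), the fatty acid hydroxylases CYP86A7 from 0.72 ± 0.27 to 4.99 ± 1.5 CPM (2.79, edgeR adjusted p = 9.69e-06), and CYP86A4 from 1.95 ± 0.76 to 7.21 ± 0.96 CPM (1.89, edgeR adjusted p = 3.04e-04). DCR was lower in trb45 clf29 than in clf29 (-1.13, edgeR adjusted p = 0.0192), but the call was lost without clf29 replicate 1 (-0.96), trb45 clf29 replicate 2 (-1.03) or the unnumbered trb45 clf29 library (-1.16). CYP86A7 was likewise lower (-0.93, edgeR adjusted p = 0.0216), with the call lost without clf29 replicate 1 (-0.66), trb45 clf29 replicate 2 (-0.81) or the unnumbered library (-0.83). In trb45 against WT, DCR was higher at 1.26 (edgeR adjusted p = 0.0184), a call lost without WT replicate 1, WT replicate 3 or trb45 replicate 2, at 0.93, 1.18 and 0.74. CYP86A4 was higher in trb45 as well at 1.13 (edgeR adjusted p = 0.0163), and its call was lost without the same 3 libraries, at 0.91, 1.02 and 0.70. BDG, an epidermal hydrolase needed for an intact cuticle, fell in clf29 and was higher in trb45 clf29 than in clf29 (-0.52, edgeR adjusted p = 1.59e-04; 0.61, edgeR adjusted p = 2.89e-05). CYP86A2 was at 230 to 265 CPM in WT, trb45 and clf29 as group means, and at 338 ± 12 CPM in trb45 clf29. It was higher there than in clf29 by 0.51 (edgeR adjusted p = 2.23e-05). BDG and CYP86A2 were named outside the rule that the section on processing gives. LACS2, which activates fatty acids for cutin, changed by -0.33 from clf29 to trb45 clf29 (edgeR adjusted p = 0.00148). GPAT4, GPAT8, CYP77A4 and LTL1, the nearest relatives of the cutin members, passed in none of trb45 against WT, clf29 against WT and trb45 clf29 against clf29. GPAT4 was higher in trb45 clf29 than in trb45 (0.33, edgeR adjusted p = 0.00291) and than in WT (0.23, edgeR adjusted p = 0.0122), the latter lost without WT replicate 1 (0.16) or the unnumbered trb45 clf29 library (0.20); GPAT8, CYP77A4 and LTL1 passed in neither.

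Of 6 genes that export lipids, ABCG11, a wax and cutin transporter, was at 85.6 ± 5.2 to 91.8 ± 4.7 CPM as group means and passed in none of those comparisons. ABCG12, the wax transporter, was lower in clf29 (-0.21, edgeR adjusted p = 0.0252), a call lost without WT replicate 1 (-0.20), clf29 replicate 2 (-0.22) or clf29 replicate 3 (-0.18), and higher in trb45 clf29 than in clf29 (0.31, edgeR adjusted p = 0.00295). LTPG1, a lipid transfer protein, was 0.32 higher in clf29 (edgeR adjusted p = 0.0102), a call lost without WT replicate 1 (0.29) or WT replicate 3 (0.27).

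Of 15 regulators tested, DEWAX, a repressor of wax genes, had its highest level in WT, at 26.4 ± 0.38 CPM, against 19.5 ± 3.9 for trb45, 13.7 ± 0.99 for clf29 and 14.9 ± 0.28 for the combined mutant. It fell in clf29 (-0.95, edgeR adjusted p = 6.11e-06) and in trb45 (-0.44, edgeR adjusted p = 0.00498). WRI4, an activator of wax genes, also fell in clf29 (-1.33, edgeR adjusted p = 0.00145) and trb45 (-1.02, edgeR adjusted p = 0.00928), the latter lost without WT replicate 3 (-0.81). SPL9, a factor of the juvenile to adult phase change, was lower in trb45 clf29 than in clf29 (-0.98, edgeR adjusted p = 8.19e-05), and MYB30, an activator of chain elongation, was higher there (0.29, edgeR adjusted p = 0.00965). MYB96, an activator of wax genes, was 0.28 higher in trb45 clf29 than in clf29 (edgeR adjusted p = 0.0392), a call lost in 7 of 12 fits that left out 1 library (0.20 to 0.31), and 0.46 higher than in WT (edgeR adjusted p = 0.00127). MYB94 was higher in trb45 clf29 than in WT (0.36, edgeR adjusted p = 0.0135), a call lost without WT replicate 1 (0.29), WT replicate 3 (0.33) or the unnumbered trb45 clf29 library (0.31). MYB16 and MYB106 passed in no comparison. SHN1, an activator of wax and cutin genes, had too few reads to be tested, with none in WT and trb45 and 0.47, 0.077 and 0.38 CPM in clf29, at least 5.74-fold higher than WT. That bound became 4.25-fold without clf29 replicate 1. SHN3, a relative of SHN1 chosen after its values were seen, was at 0.45, 0.50 and 0.50 CPM in WT, at 0.14, 0.022 and 0.10 CPM in trb45, at 1.18, 1.12 and 1.01 CPM in clf29, and at 0.24, 0.25 and 0.23 CPM in trb45 clf29. It fell in trb45 (-2.36, edgeR adjusted p = 5.32e-04), rose in clf29 (1.18, edgeR adjusted p = 0.00759) and was lower in trb45 clf29 than in clf29 (-2.18, edgeR adjusted p = 1.42e-04). Among 3 suberin genes tested, FAR1, a reductase that makes fatty alcohols, was lower in trb45 clf29 than in clf29 (-1.33, edgeR adjusted p = 5.94e-06).

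The group pattern of CER1, highest in clf29, was most alike in MBD7, F8H and AT1G18850 among 16336 candidate genes, with root-mean-square differences of 0.016, 0.019 and 0.026 between their centred log2 group means over the 4 genotypes. Only group means were compared. In trb45, MBD7 was at 3.55 ± 0.71 CPM and F8H at 11.4 ± 2.8 CPM (SD, n = 3), a spread far wider than these differences. For WSD1 the 3 most alike were AT5G51670, E13L3 and SMT3, at 0.049, 0.056 and 0.062. For CUS2 the most alike were far looser, with AT1G30170, GPAT1 and CYP705A19 at 0.87, 0.99 and 1.01. From clf29 to trb45 clf29, AT1G30170 hardly changed (1.99 and 1.97 CPM) and CYP705A19 changed little (57.8 and 46.8 CPM), unlike CUS2. GPAT1 fell from 4.51 to 0.93 CPM.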

How the data were processed

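Raw read counts per gene were deposited by the authors in 1 table of 28775 genes for 12 libraries, with no columns left unused. The submitters' processing notes name HISAT2, DESeq2 and the build TAIR10; the read counter, annotation and strand setting are not given in the sources used here. From the counts, edgeR 4.0.16 in R 4.3.3 kept 19138 genes (filterByExpr, minimum count 10), scaled libraries by TMM (factors 0.935 to 1.07) and fitted the quasi-likelihood test on the 4 group means, with Benjamini-Hochberg adjustment over all genes tested and a threshold of 0.05. CPM used the TMM-scaled library sizes. The 6 comparisons included the difference of the trb45 effect between backgrounds. The members and the other gene lists were chosen with earlier results of these data known. Members therefore carry no p, and their calls are a description. Other genes were named by a rule: the 2 largest called changes per list and comparison, with a mean of at least 1 CPM. Close relatives and main regulators were added. In the lists above, BDG, CYP86A2, WSD2 and SHN3 were named outside this rule. A fold against a group without reads used a floor of 3 reads per library. Promoters are the 300 bases before the RefSeq gene start in TAIR10.1. Alternatives were DESeq2 1.42.0, other scaling and filters, only the groups compared, a replicate block and 12 fits leaving out 1 library each. One trb45 clf29 library carried no replicate number.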

Additional observations from a re-analysis of the deposited data

Results flagged for a closer look

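The effect of the trb45 mutations differed between the clf29 and WT backgrounds past the threshold (edgeR adjusted p under 0.05) for 10 of 70 other pathway genes, or 14.3%, against 7.47% of all genes. Of the 10 cuticle genes 4 were also past it, all negative, as were 3.31% of all genes. Both the 10 and the other pathway genes were listed with earlier results of these data known, so nothing is read from either count. The values of the 10 cuticle genes are a description. For those 4 the difference of log2 fold changes was -0.54 for CER1, -0.72 for WSD1, -1.0 for CYP77A6 and -5.63 for CUS2. Among the other genes it was negative for CER1L1 (-3.37), DCR (-2.39), CYP86A7 (-1.80), ABCG13 (-1.76), SPL9 (-1.19) and FAR1 (-0.85), and positive for BDG (0.66), DEWAX (0.57), KCS20 (0.45) and CER26 (0.31). The calls of CER26, CYP86A7, ABCG13 and DEWAX were lost in 2 or more of the 12 fits that left out 1 library each; for DEWAX and ABCG13 this was 9 of 12.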

How the results depend on the processing

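Of the members' values under the alternatives, 1065 of 1127 kept their direction and their side of the threshold, 27 lost the threshold, 24 gained it and 11 changed sign. With DESeq2, the difference between backgrounds passed for 7 members in place of 4. Fitting only the groups compared gave 9 pathway genes in trb45 against WT in place of 15. Leaving out 1 library gave 7 to 15 there, 12 to 28 (in place of 20) in trb45 clf29 against trb45 and 6 to 12 (in place of 10) for the difference between backgrounds. The lowest, 7, came without WT replicate 3, and 12 and 6 came without trb45 replicate 3; 9 came without WT replicate 1 or trb45 replicate 3.

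The replicate numbers did not pair the libraries across all genotypes. Of 15 same-numbered pairs, correlations of deviations ran from -0.255 to 0.322 and 2 exceeded 0.1. Both were of WT with trb45, at 0.273 for replicate 1 and 0.322 for replicate 2, while replicate 3 gave 0.027. The unlike-numbered pairs of their replicates 1 and 2 were at -0.294 and -0.293. Deviations within a group sum to 0, so these are not independent of the same-numbered values. For trb45 with trb45 clf29 the signs were opposite, at -0.209 and -0.255 for same-numbered replicates 1 and 2. The unlike-numbered pairs of these were at 0.230 and 0.242. These correlations cannot decide the question, and a pairing of WT with trb45 by number was not excluded. With the replicate block on 11 numbered libraries, 11 pathway genes were called in trb45 clf29 against trb45, with 4 members in place of 6, and 5 for the difference between backgrounds, and the CYP77A6 difference, at -0.96, lost its call.

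Signs changed for uncalled values. For GPAT6, scaling by library size alone gave -0.092 against WT and -0.042 against trb45 in trb45 clf29; leaving out 1 library gave -0.15 to 0.15 and -0.090 to 0.33 there and -0.32 to 0.095 in trb45 against WT. MAH1 in trb45 against WT ran from -1.05 to 0.41 and CER1 in trb45 clf29 against trb45 from -0.053 to 0.030. Library size alone shifted the median of all genes by -0.13 in trb45 clf29 against trb45, and split its pathway calls 9 higher and 10 lower in place of 14 and 6; against WT the split was 11 and 15 in place of 16 and 8. In clf29 against WT it moved the share of higher calls over all genes from 53.3% to 36.7%. Low counts limit MAH1 and, in WT, CUS2.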
